A study of Mus musculus with 12 samples.

Results

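The genes described here are those of the interferon response and of antigen presentation by major histocompatibility complex (MHC) class I. They were chosen by symbol: every gene whose name starts with Irf, Ifi, Ifnar, Ifngr, Oas, Gbp, H2- or Stat and a digit, with Psmb8, Psmb9, Tap1, Tap2, Isg15, Usp18, Bst2, Rsad2 and B2m where measured. The rule found 53 genes of the 11015 that carried a symbol of their own on the array table. They comprised 4 interferon receptor chains, 5 STAT factors, 6 interferon regulatory factors (IRFs), 3 IRF cofactors, 21 effectors, 9 class I genes and 5 genes of MHC class II or other function. A symbol prefix takes in relatives by name: H2-Ke6, a steroid dehydrogenase encoded within the MHC, is no antigen presentation gene, and Ifitm5 is known from bone. Isg15, Usp18, Ifit1 and Ifih1 were not analysed here.

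The study measured RNA of endothelial cells cultured from mouse aorta, lacking Ets1, Ets2 or both of these ETS-family transcription factors, on Affymetrix expression arrays. The Ets1/2 null (double null) cells were Ets1-/-; Ets2fl/fl and had received a lentivirus carrying egfp-Cre. The Ets1 null cells were Ets1-/-; Ets2fl/fl with a lentivirus carrying egfp alone, and the Ets2 null cells were Ets1+/+; Ets2fl/fl with egfp-Cre. Wild type cells were Ets1+/+; Ets2+/+ with egfp alone. All donors were 4 weeks old and all cells carried a lentivirus, so no group shows the uninfected state. Loss of Ets2 and the Cre enzyme came together in every comparison, and the Ets1 null cells carried a floxed Ets2 that wild type cells did not. Each group had 3 arrays except the double null, which had 2, because the last of its 3 columns was the mean of the rest in 20521 of 20523 probe sets and was left out. The labels call the arrays biological replicates without saying whether each came from its own animal, so p-values measure the spread between these arrays.

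Type I interferons bind a receptor of Ifnar1 and Ifnar2 chains and interferon gamma binds Ifngr1 and Ifngr2. Janus kinases on these receptors phosphorylate STAT proteins. Complexes that contain Stat2 and Irf9 then bind interferon-stimulated response elements (ISREs), other STAT complexes bind gamma-activated sites (GAS), and both switch on antiviral effectors and the machinery that loads peptides onto class I molecules. Endothelial cells line the vessel wall, carry both receptors and raise class I on their surface under interferon.

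Values are log2 readings of each gene's brightest probe set, given relative to the array's median gene (centred); the deposited reading is named as such. Array medians were 8.73 and 8.69 in the double null arrays, against 9.37 to 9.50 in the other 9 arrays. Centring therefore moved the median difference of all genes between double null and wild type arrays to 0.11, against -0.61 in deposited values. Ets1 itself went against the label in the arrays labelled double null, at 1.29 and 1.60 there, -1.16, -0.70 and -0.32 in Ets1 null arrays, 0.09, 0.16 and 0.43 in Ets2 null arrays and 0.89, 0.41 and 0.56 in wild type arrays. Ets1 differed by -1.35 ± 0.23 (SE) between Ets1 null and wild type arrays (limma adjusted p = 0.151) and by 2.17 ± 0.25 between double null and Ets1 null arrays (adjusted p = 0.000713). The latter was 1.41 in deposited values (adjusted p = 0.0019). Between double null and wild type arrays Ets1 differed by 0.82 ± 0.25 centred (adjusted p = 0.0393), but by 0.1 in deposited values (adjusted p = 0.762). Double null is therefore used below as a label only. Ets2 was not called lower in Ets2 null than in wild type arrays (-0.43 ± 0.35, adjusted p = 0.544). In arrays labelled double null Ets2 read 2.28 and 0.94, against 0.35, 0.58 and 1.21 in wild type arrays. It was higher there than in Ets2 null arrays by 1.33 ± 0.4 (limma adjusted p = 0.0325), or by 0.62 in deposited values (adjusted p = 0.255). The difference from wild type was 0.9 ± 0.4 (adjusted p = 0.121). Nothing on the table says whether the Ets2 probes lie in the floxed part. By the sex-linked Eif2s3y and Xist, the 3 Ets2 null arrays and wild type array 1 came from males, the others from females. Only the wild type group held both sexes. A term for male arrays, used in some fits below, therefore rests on wild type array 1 against the other wild type arrays. Sex and the deviation of that array cannot be told apart in it. The mean level of 6 endothelial markers on the table (Kdr, Flt1, Eng, Cd34, Egfl7 and Fabp4) was -1.74 to -0.75 in double null, between -2.13 and -1.45 in the Ets1 null, between -0.10 and 0.46 in the Ets2 null and between -0.64 and 0.14 in the wild type. The mean of 8 leukocyte markers was -2.23 to -2.05 in arrays labelled double null, between -2.01 and -1.93 in the Ets1 null, between -2.37 and -1.88 in the Ets2 null and between -2.02 and -1.77 in the wild type. For 4 epithelial and mesothelial markers it was 0.11 to 0.20 in arrays labelled double null, and elsewhere 0.35 to 0.79 (Ets1 null), -1.43 to -1.07 (Ets2 null) and -2.09 to 0.28 (wild type). For 10 fibroblast markers it was -0.16 to 1.33 in arrays labelled double null, and elsewhere -0.94 to 0.05 (Ets1 null), -0.27 to 0.75 (Ets2 null) and -0.11 to 0.37 (wild type). The part of these cell types in the results was not tested, and in such bulk RNA fewer cells of a type and less RNA per cell cannot be told apart.

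Promoters of some of the genes described below are shown, each with a match to an interferon-type motif. RefSeq windows (GRCm38.p6, 250 bases before to 50 after the start) were held for 43 of the 53 genes. Some genes had several windows, and a match in any of them counted for the gene. An ISRE-like motif (GAAA, any 2 bases and GAAA, on either strand) stood in windows of 12 of the 43 genes (27.9%), against 3.99% of all 27025 genes with a window. A GAS-like motif (TTCNNNGAA, which reads the same on either strand) stood in windows of 14 genes (32.6%), against 9.55% of all genes. A core that ETS factors bind (CGGAAGT, either strand) stood in windows of 5 genes (11.6%, against 7.2% of all genes), namely Ifit2, Ifnar1, Irf2, Irf3 and Irf5. The windows held for Stat5a, Stat5b and Ifngr2, which are also called in comparisons below, had none of these motifs. Capitals mark the ISRE-like match in Stat2 (chr10:128270248-128270547, plus strand), Gbp2 (chr3:142620413-142620712, plus strand) and B2m (chr2:122147437-122147736, plus strand). In Oas1a (chr5:120907476-120907775, minus strand) they mark a GAS-like match and then a pair of overlapping ISRE-like matches, and in Irf2bp1 (chr7:19003808-19004107, plus strand) and Ifi202b (chr1:173982795-173983094, minus strand) a GAS-like match.
Stat2: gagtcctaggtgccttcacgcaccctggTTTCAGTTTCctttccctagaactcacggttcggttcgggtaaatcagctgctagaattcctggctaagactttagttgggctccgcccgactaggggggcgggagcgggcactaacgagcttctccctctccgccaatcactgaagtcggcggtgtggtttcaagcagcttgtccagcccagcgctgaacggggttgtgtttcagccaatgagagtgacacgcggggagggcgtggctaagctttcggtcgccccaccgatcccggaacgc
Gbp2: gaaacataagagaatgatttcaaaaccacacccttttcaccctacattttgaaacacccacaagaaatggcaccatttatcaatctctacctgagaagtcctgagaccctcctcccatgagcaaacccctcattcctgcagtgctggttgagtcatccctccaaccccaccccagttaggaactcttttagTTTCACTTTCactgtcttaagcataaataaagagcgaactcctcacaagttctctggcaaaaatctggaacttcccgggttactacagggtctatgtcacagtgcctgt
Oas1a: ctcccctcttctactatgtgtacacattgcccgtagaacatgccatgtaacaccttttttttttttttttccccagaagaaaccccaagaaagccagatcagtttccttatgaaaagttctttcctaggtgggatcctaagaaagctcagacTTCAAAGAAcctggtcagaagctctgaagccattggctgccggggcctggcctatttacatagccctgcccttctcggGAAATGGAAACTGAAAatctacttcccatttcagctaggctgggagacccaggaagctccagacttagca
B2m: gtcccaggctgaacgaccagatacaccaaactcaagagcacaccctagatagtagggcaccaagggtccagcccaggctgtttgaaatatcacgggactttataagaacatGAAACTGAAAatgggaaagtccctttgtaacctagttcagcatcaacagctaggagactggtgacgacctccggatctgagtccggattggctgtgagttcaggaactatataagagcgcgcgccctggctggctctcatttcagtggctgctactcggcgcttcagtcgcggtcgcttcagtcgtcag
Irf2bp1: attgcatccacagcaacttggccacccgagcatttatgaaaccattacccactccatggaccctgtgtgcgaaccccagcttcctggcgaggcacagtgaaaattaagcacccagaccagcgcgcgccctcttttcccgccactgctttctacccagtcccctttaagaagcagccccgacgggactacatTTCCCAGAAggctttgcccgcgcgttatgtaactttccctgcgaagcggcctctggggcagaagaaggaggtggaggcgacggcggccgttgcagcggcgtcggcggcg
Ifi202b: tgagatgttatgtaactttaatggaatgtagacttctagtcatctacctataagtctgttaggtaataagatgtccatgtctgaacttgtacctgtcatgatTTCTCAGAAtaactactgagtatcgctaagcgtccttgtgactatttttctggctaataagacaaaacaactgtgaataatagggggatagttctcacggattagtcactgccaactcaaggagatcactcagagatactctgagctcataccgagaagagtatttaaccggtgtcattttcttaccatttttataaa
A match of letters is a description and shows no binding.

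No gene of the interferon set passed the threshold in Ets1 null or in Ets2 null against wild type arrays. The arrays labelled double null showed 2 lower genes, Stat2 and Irf2bp1, against both wild type and Ets1 null arrays. A gene was called at a limma adjusted p under 0.05, and for the double null arrays, whose scale stood apart, calls made with centred and with deposited values in the same direction are given as called on both scales. In Ets1 null against wild type arrays, limma called 0 of the 53 genes, against 0.00908% of all genes, and 4 genes (7.55%) had an unadjusted p under 0.05, against 8.71% of all. The differences lay below 0 in 33 of the 53 genes (62.3%), against 53.8% of all, with a median of -0.15, against -0.03 over all genes. In Ets2 null against wild type arrays it called 0 of 53, against 0.436% of all genes, and 6 genes (11.3%) had an unadjusted p under 0.05, against 18.9% of all. Here 30 of the 53 differences lay below 0 (56.6%, against 50.7% of all), with a median of -0.08, against -0.01 over all genes. The single null comparisons share their wild type arrays. In simulated data, 2% (Ets1 null) and 8% (Ets2 null) of changes of 0.5 log2 units against wild type were called. Of changes of 1 log2 unit 52% and 48% were called, so a gene not called may still differ.

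Between double null and wild type arrays, 2 of the 53 genes were called on both scales, against 14.3% of all genes. Both were lower, as were 12% of all genes. With centred values 7 were called, against 28.3% of all genes; 5 were higher (16.4% of all) and 2 lower (12% of all). With deposited values 23 were called, all lower, against 45.9% of all genes called and 43.6% called lower. The median difference over the 53 genes was -0.01 centred, against 0.11 over all genes. Against Ets1 null arrays the genes called on both scales were again Stat2 and Irf2bp1, both lower, against 13% of all genes called and 11.3% called lower. With centred values 8 were called, against 28.7%. Against Ets2 null arrays 6 were called on both scales, against 16.2% of all genes, and 11 with centred values, against 30.3%. Ifi202b was higher, against 3% of all genes, and Stat2, Stat5a, Stat5b, Irf2bp1 and Ifngr2 were lower, against 13.2%. These comparisons share the double null arrays. Group and sex coincide in the last of them, since all Ets2 null arrays were male and both double null arrays female. With centred values 13.2%, 15.1% and 20.8% of the interferon genes were called in these comparisons in turn, below the shares of all genes. On both scales the shares were 3.77%, 3.77% and 11.3%, also below. With deposited values against wild type the share was near that of all genes (43.4%, against 45.9%). Against Ets1 null and Ets2 null arrays it was 34% each (44.5% and 46.3% of all).

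**Figure D1:**
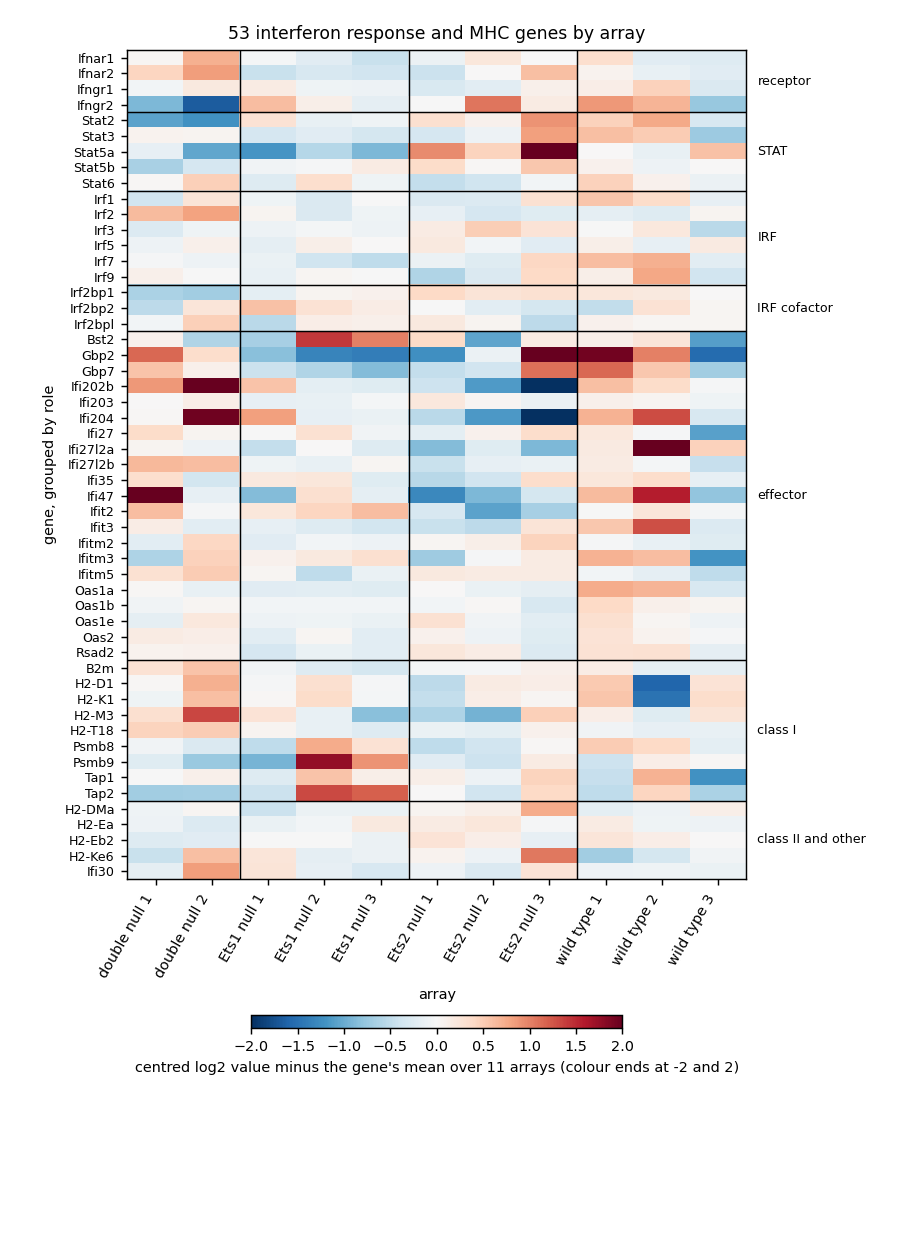
Each row is 1 of the 53 genes, grouped by role, and each column 1 array, with double null left, then Ets1 null, Ets2 null and wild type. Colour is the centred log2 value minus the gene's mean over the 11 arrays, ending at -2 and 2. Single arrays stand out more than groups do: effectors are low in wild type array 3, H2-K1 and H2-D1 are low in wild type array 2, and Stat2 is low in both double null arrays.

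Among the receptors, Ifnar1 and Ifnar2 form the type I interferon receptor and Ifngr1 and Ifngr2 the receptor for interferon gamma. None of the 4 chains was called in a single null, where the differences from wild type ran between -0.28 and -0.08 in Ets1 null arrays and between -0.24 and 0.16 in the Ets2 null. Ifngr2, the signalling chain of the gamma receptor, read 0.13 and -0.63 in arrays labelled double null, against 1.65, 1.16 and 0.85 in Ets1 null arrays, 1.03, 2.11 and 1.20 in Ets2 null arrays and 1.90, 1.71 and 0.28 in wild type arrays. Both double null readings lay below all others. The difference from Ets2 null arrays was -1.69 ± 0.52 (limma adjusted p = 0.0366), and from wild type arrays -1.55 ± 0.52 (adjusted p = 0.0534). Without double null array 2 the difference from Ets2 null arrays was -1.31. The call against Ets2 null arrays was kept in 11 of 20 alternatives. It was lost without any 1 of the Ets2 null arrays (-1.9, -1.36 and -1.82) and with the compared groups alone (-1.69, adjusted p = 0.0558). Among other alternatives, that call was lost with the mean of the Ifngr2 probe sets (-0.66, adjusted p = 0.195). It was also lost with a term for male arrays (-0.79, adjusted p = 0.619). A second probe set of Ifngr2 differed by 0.32 between double null and wild type arrays. Ifnar2 read 1.17 and 1.58 in arrays labelled double null, against 0.29, 0.42 and 0.35 in Ets1 null arrays, with a centred difference of 1.02 ± 0.27 (adjusted p = 0.0222) that was 0.26 in deposited values (adjusted p = 0.463).

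STAT proteins carry the signal to the nucleus: Stat2 serves type I interferon, Stat3 and Stat5a with Stat5b mainly cytokines and growth factors, and Stat6 interleukin 4. Stat2 read -3.88 and -4.03 in arrays labelled double null. It read -2.52, -2.96 and -2.90 in Ets1 null arrays, -2.49, -2.73 and -1.92 in Ets2 null arrays and -2.36, -2.05 and -3.13 in wild type arrays. The double null readings lay below all 9 others, with no overlap. Stat2 fell in arrays labelled double null by 1.44 ± 0.33 against wild type (limma adjusted p = 0.0123), by 1.16 ± 0.33 against Ets1 null (adjusted p = 0.0289) and by 1.57 ± 0.33 against Ets2 null arrays (adjusted p = 0.00815). In deposited values the difference from wild type was -2.16 (adjusted p = 0.000766). With a term for male arrays the difference from Ets2 null arrays was -1.35 and not called (adjusted p = 0.226). The probe set is dim, with deposited readings of 4.66 to 7.53 over the arrays, and Stat2 had no other. Without double null array 2 the difference from wild type was -1.36 (adjusted p = 0.0693), and with the compared groups alone the adjusted p was 0.0608. The call against Ets1 null arrays was lost in 6 of 19 alternatives, which were the replicate block (-1.21, adjusted p = 0.059) and leaving out any 1 of these 5 arrays (-1.25 to -1.03, adjusted p = 0.0545 to 0.12).

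Stat5a was lower in double null than in Ets2 null arrays, and its 2 highest readings were in Ets2 null arrays. It read -0.92 and -1.80 in arrays labelled double null, -1.94, -1.33 and -1.65 in Ets1 null arrays, 0.18, -0.31 and 1.24 in Ets2 null arrays and -0.75, -0.90 and -0.17 in wild type arrays. The double null and Ets1 null arrays all lay below the wild type arrays, and the Ets2 null range overlapped that of wild type. The difference between double null and Ets2 null arrays was -1.73 ± 0.45 (limma adjusted p = 0.0201), against -0.75 ± 0.45 between double null and wild type (adjusted p = 0.247) and -1.03 ± 0.40 between Ets1 null and wild type (adjusted p = 0.547). Its second probe set differed between double null and Ets2 null arrays by -4.49 ± 0.33 (limma over all probe sets, adjusted p = 4.22e-05). The second probe set was also lower in arrays labelled double null than in wild type (-3.36, adjusted p = 0.000183) and Ets1 null arrays (-2.50, adjusted p = 0.000763), where the brightest was not called (-0.75 and 0.29), so the probe sets disagreed there. The brightest lost its call against Ets2 null arrays without double null array 2 (-1.28, adjusted p = 0.136), with array weights (-1.28, adjusted p = 0.0564), with the compared groups alone (adjusted p = 0.0875) and once sex was in the fit (-1.94, adjusted p = 0.212). Both probe sets ran the same way in each single null, with -0.86 for the second probe set in Ets1 null and 1.13 in Ets2 null arrays.

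Stat5b, the close relative encoded beside Stat5a, read -0.94 and -0.63 in arrays labelled double null, against -0.36, -0.31 and -0.13 in Ets1 null arrays, 0.07, -0.27 and 0.25 in Ets2 null arrays and -0.20, -0.40 and -0.29 in wild type arrays. The double null arrays lay below all others. The difference from Ets2 null arrays was -0.80 ± 0.18 (limma adjusted p = 0.0105), and those from Ets1 null and wild type arrays did not pass (-0.52 and -0.49, adjusted p = 0.0586 and 0.0718). Without double null array 1 the difference from Ets2 null arrays was -0.65 (adjusted p = 0.0681). With a term for male arrays the difference from Ets2 null arrays was -0.66 and not called (adjusted p = 0.265). A second Stat5b probe set differed by 0.04 between double null and wild type arrays. The brightest probe sets of Stat3 and Stat6 were not called in any comparison. The second Stat6 probe set was lower in arrays labelled double null, with differences of -1.05 from wild type, -1.11 from Ets1 null and -0.84 from Ets2 null arrays (limma over all probe sets, adjusted p = 0.0168, 0.014 and 0.0412). The dimmest Stat3 probe set was higher than in Ets1 null arrays, by 1.60 (adjusted p = 0.0439).

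**Figure D2:**
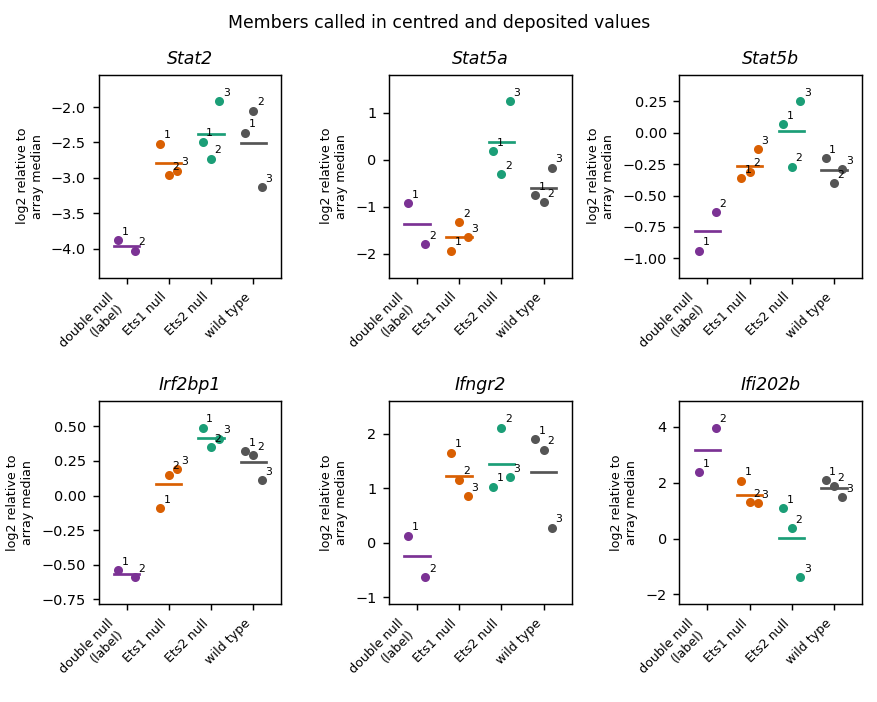
Centred log2 values by array for Stat2, Stat5a, Stat5b, Irf2bp1, Ifngr2 and Ifi202b, with double null left, then Ets1 null, Ets2 null and wild type; numbers are replicates and lines group means. Stat2 (-3.88 and -4.03) and Irf2bp1 (-0.54 and -0.59) lie below all other arrays in the double null, and Ifi202b is lowest in the Ets2 null arrays.

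The 6 IRFs bind ISREs and related sites; Irf1 is induced by interferon gamma, Irf3 and Irf7 drive interferon genes after virus sensing, Irf9 joins the Stat complex and Irf2 mainly opposes Irf1. None was called on both scales in any comparison. Irf7 read -3.36 and -3.43 in arrays labelled double null, -3.47, -3.73 and -3.85 in Ets1 null arrays, -3.45, -3.58 and -2.92 in Ets2 null arrays and -2.71, -2.63 and -3.55 in wild type arrays. Wild type arrays 1 and 2 were the highest of all, and wild type array 3 lay among the null arrays. The difference from wild type was -0.72 ± 0.27 in Ets1 null (limma adjusted p = 0.526), -0.35 ± 0.27 in Ets2 null (adjusted p = 0.503) and -0.43 ± 0.30 in arrays labelled double null (adjusted p = 0.311). Without wild type array 3 it was -1.01 in Ets1 null, -0.64 in Ets2 null and -0.72 in arrays labelled double null (adjusted p = 0.118, 0.183 and 0.0493). Irf2 read -1.39 and -1.22 in arrays labelled double null, against -2.37 to -1.97 in the other 9. The centred difference from wild type was 0.85 ± 0.16 (adjusted p = 0.00481), but the deposited one was 0.13 (adjusted p = 0.551), and its deposited readings spanned only 7.02 to 7.53 over the 11 arrays.

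Irf3 had 3 probe sets, and its brightest differed between Ets2 null and wild type arrays by 0.43 (adjusted p = 0.266). Its dimmest probe set differed by 1.63 ± 0.24 (limma over all probe sets, adjusted p = 0.0304). The mean over its probe sets was called, at 0.80 (adjusted p = 0.0464).

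The cofactors Irf2bp1, Irf2bp2 and Irf2bpl are related nuclear proteins, named for binding Irf2, that act mainly as corepressors. Irf2bp1 read -0.54 and -0.59 in arrays labelled double null. It read -0.09, 0.15 and 0.19 in Ets1 null arrays, 0.49, 0.35 and 0.41 in Ets2 null arrays and 0.32, 0.29 and 0.11 in wild type arrays. Both double null readings lay below all others, and all Ets2 null readings above all wild type ones. In double null arrays Irf2bp1 fell by 0.81 ± 0.14 against wild type (limma adjusted p = 0.00351), by 0.65 ± 0.14 against Ets1 null (adjusted p = 0.00882) and by 0.98 ± 0.14 against Ets2 null arrays (adjusted p = 0.00139). In deposited values it fell by 1.53 against wild type (adjusted p = 4.8e-05). The difference from wild type kept its call in each of 20 alternatives tried, with adjusted p up to 0.0453; the difference from Ets2 null arrays lost it with a term for male arrays (-0.86, adjusted p = 0.0929). Irf2bp1 had 1 probe set. The brightest probe sets of Irf2bp2 and Irf2bpl were not called with centred values, although Irf2bp2 was with deposited values (-0.81 against wild type, adjusted p = 0.0453). Dimmer probe sets of both were lower: between double null and wild type arrays 1 of the 4 Irf2bp2 probe sets differed by -2.05 and the second Irf2bpl probe set by -1.43 (limma over all probe sets, adjusted p = 0.000661 and 0.0143).

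None of the 21 effectors was called in either single null. The median difference from wild type over the effectors was 0.04 in arrays labelled double null (0.11 over all genes), -0.23 in Ets1 null arrays (-0.03 over all genes) and -0.24 in Ets2 null arrays (-0.01 over all genes). In deposited values the double null median was -0.68, against -0.61 over all genes. Of these genes 14 lay below 0 in Ets1 null arrays (66.7%, against 53.8% of all genes) and 16 in Ets2 null arrays (76.2%, against 50.7% of all). The low wild type array 3, described below, enters both.

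Ifi202b and Ifi204, both of the PYHIN family of DNA-binding proteins, were the effectors with the widest differences between groups. Ifi202b read 2.37 and 3.97 in arrays labelled double null, 2.07, 1.31 and 1.26 in Ets1 null arrays, 1.08, 0.37 and -1.38 in Ets2 null arrays and 2.10, 1.87 and 1.48 in wild type arrays. Every Ets2 null array lay below every wild type and double null array, and the Ets2 null arrays spread over more than 2 log2 units. Ifi202b was higher in double null than in Ets2 null arrays by 3.14 ± 0.69 (limma adjusted p = 0.00957) and by 2.44 in deposited values (adjusted p = 0.0155). Without double null array 2 the difference was 2.35 (adjusted p = 0.0747). With a term for male arrays the difference between double null and Ets2 null arrays was 3.57 and not called (adjusted p = 0.146). The difference between Ets2 null and wild type arrays was -1.79 ± 0.62 (adjusted p = 0.175).

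Ifi204 read -2.51 and -0.59 in arrays labelled double null, -1.71, -2.70 and -2.67 in Ets1 null arrays, -3.07, -3.68 and -5.01 in Ets2 null arrays and -1.84, -1.22 and -2.85 in wild type arrays. As with Ifi202b, the Ets2 null arrays held the lowest readings, and array 3 the lowest of these. The difference between Ets2 null and wild type arrays was -1.95 ± 0.66 (limma adjusted p = 0.170), and that between double null and Ets2 null arrays 2.37 ± 0.74 (adjusted p = 0.0376), or 1.66 in deposited values (adjusted p = 0.0855). Ifi203, another member of the family, lay between -2.13 and -1.75 in all 11 arrays. The Ifi202b probe set is of a type that can match several transcripts, so close relatives could add to its reading.

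The guanylate-binding proteins Gbp2 and Gbp7 are interferon-induced GTPases that act against intracellular pathogens. Gbp2 read -0.46 and -1.25 in arrays labelled double null, -2.44, -2.93 and -2.99 in Ets1 null arrays, -2.83, -1.72 and 0.39 in Ets2 null arrays and 0.32, -0.59 and -3.15 in wild type arrays. The Ets1 null arrays were uniformly low, but wild type array 3 was lower than all of them and Ets2 null array 3 was the highest of all. The difference between Ets1 null and wild type arrays was -1.65 ± 0.95 (limma adjusted p = 0.643). Gbp7 read -3.16, -3.33 and -3.60 in Ets1 null arrays, against -1.58, -2.19 and -3.43 in wild type arrays, with the same wild type array lowest.

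Oas1a, an antiviral enzyme whose product activates RNase L, read -1.79 and -1.96 in arrays labelled double null, -2.03, -2.01 and -2.05 in Ets1 null arrays, -1.80, -1.94 and -1.98 in Ets2 null arrays and -1.06, -1.13 and -2.12 in wild type arrays. All 8 null arrays lay below wild type arrays 1 and 2 and above wild type array 3. With all arrays the difference from wild type was -0.44 in double null, -0.59 in Ets1 null and -0.47 in Ets2 null arrays (limma adjusted p = 0.273, 0.564 and 0.342). Without wild type array 3 it was -0.78, -0.94 and -0.81 (adjusted p = 0.00474, 0.0334 and 0.0353). Wild type array 3 thus decided the Oas1a call in all comparisons with wild type. Its close paralogs Oas1b and Oas1e, and Oas2, stayed within -2.75 and -1.45 over all arrays.

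Wild type array 3 was the lowest wild type array for 20 of the 21 effectors (95.2%) and for 40 of the 53 genes (75.5%), against 40.7% of all genes. Its gap to the mean of wild type arrays 1 and 2 was -3.02 for Gbp2, -1.88 for Ifi47, -1.85 for Ifitm3, -1.55 for Gbp7 and -1.27 for Bst2. The median gap was -0.52 over the effectors, against -0.02 over all genes. These gaps describe 1 array, and no test applies to them. Wild type array 1 was the male one of the group, and wild type arrays 2 and 3 were female. The part of sex in these gaps was not tested.

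**Figure D3:**
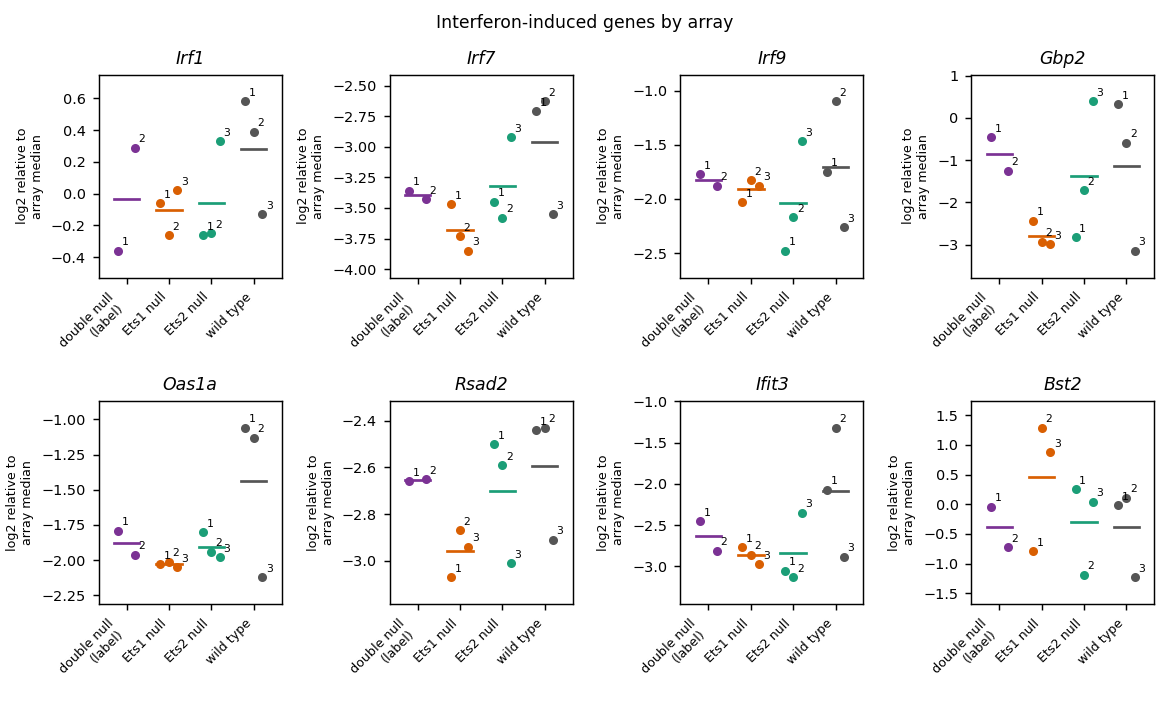
Centred log2 values by array for Irf1, Irf7, Irf9, Gbp2, Oas1a, Rsad2, Ifit3 and Bst2, with double null left, then Ets1 null, Ets2 null and wild type; numbers are replicates and lines group means. Wild type array 3 lies below wild type arrays 1 and 2 in each panel, and for Gbp2 the gap to their mean is -3.02.

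The Ifit proteins bind viral RNA, and Ifit2 was lower in every Ets2 null array than in any other group. It read -0.03 and -0.67 in arrays labelled double null, -0.42, -0.22 and -0.04 in Ets1 null arrays, -0.97, -1.72 and -1.32 in Ets2 null arrays and -0.66, -0.41 and -0.69 in wild type arrays. The difference between Ets2 null and wild type arrays was -0.75 ± 0.23 (limma adjusted p = 0.14), and that between double null and Ets2 null arrays 0.98 ± 0.26 (adjusted p = 0.0197), or 0.28 in deposited values (adjusted p = 0.423). Ifi27l2a, an interferon-induced mitochondrial protein, read -3.45, -2.82 and -3.48 in Ets2 null arrays, against -2.40, -0.44 and -2.12 in wild type arrays, with no overlap and a difference of -1.60 ± 0.45 (adjusted p = 0.125). Groups without overlap, lower in Ets2 null than in wild type arrays, were found for 5 of the 53 genes (9.43%: Ifi202b, Ifi204, Ifi27l2a, Ifit2 and Oas1b), against 13.4% of all genes. In Ets1 null arrays the count was also 5 (9.43%: H2-Eb2, Ifi27l2a, Ifnar2, Oas1b and Stat5a), against 11.5% of all genes.

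With weights that lower the say of arrays that scatter, 8 genes were called in Ets2 null against wild type arrays, all lower. The weights of wild type array 3 and Ets2 null array 3 were 0.32 and 0.30. The genes were Ifi204 (-1.97), Ifi27l2a (-1.80), Ifi47 (-2.03), Ifit2 (-0.94), Ifit3 (-1.34), Irf1 (-0.63), Irf7 (-0.76) and Oas1a (-0.69), with limma adjusted p of 0.016 to 0.0414. Irf7 (-0.97) and Oas1a (-0.82) were called in Ets1 null arrays under the same weights (adjusted p = 0.0338 and 0.0373). These shares stand against 9.85% of all genes called under the weights in Ets2 null arrays (8 of 53 here, 15.1%) and 1.42% in Ets1 null arrays (2 of 53, 3.77%). With all arrays and no weights none of these genes passed.

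Ifi27l2b and Ifitm5 were called higher in double null than in wild type arrays with centred values alone. The centred differences were 0.74 ± 0.19 and 0.65 ± 0.19 (limma adjusted p = 0.0199 and 0.0331), and the deposited ones 0.02 and -0.07. Their deposited readings spanned 6.79 to 7.36 and 6.06 to 6.73 over the 11 arrays, and both read below the median gene in every array.

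Class I molecules present peptides that the immunoproteasome subunits Psmb8 and Psmb9 help to cut and the Tap1 and Tap2 transporter carries into the endoplasmic reticulum. B2m, the light chain of all class I molecules, read 5.04 and 5.31 in arrays labelled double null, 4.67, 4.49 and 4.40 in Ets1 null arrays, 4.70, 4.72 and 4.84 in Ets2 null arrays and 4.90, 4.57 and 4.56 in wild type arrays. The centred difference of double null from wild type was 0.50 ± 0.16 (limma adjusted p = 0.0454), but the deposited one was -0.22 (adjusted p = 0.25), so the direction of this probe set turned with the scaling. The second B2m probe set kept its direction, at 1.07 ± 0.22 centred (limma over all probe sets, adjusted p = 0.0057) and 0.35 deposited. H2-T18, a nonclassical class I gene, likewise differed by 0.61 ± 0.14 centred (adjusted p = 0.0137) and by -0.11 deposited, and its deposited readings spanned 6.46 to 6.82. None of the 9 class I genes was called on both scales in any comparison, nor in either single null.

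H2-K1 and H2-D1 encode classical class I heavy chains. H2-K1 read 2.28 and 2.98 in arrays labelled double null, 2.40, 2.74 and 2.33 in Ets1 null arrays, 1.89, 2.51 and 2.41 in Ets2 null arrays and 2.93, 0.89 and 2.73 in wild type arrays. H2-D1 read 2.90 and 3.58 in arrays labelled double null, 2.84, 3.19 and 2.85 in Ets1 null arrays, 2.34, 3.04 and 3.0 in Ets2 null arrays and 3.40, 1.28 and 3.14 in wild type arrays. Wild type array 2 was lowest in both. In all 9 probe sets of these genes it was the lowest wild type array, with a gap to the mean of the other two of -0.38 to -2.06, whereas 29.8% of all probe sets had their lowest wild type reading there. Because heavy chain genes are highly similar and vary between mouse strains, probe sets of H2-K1 and H2-D1 may read each other's RNA and depend on the allele, and the labels used here give no strain. B2m, Tap1 and Tap2 were not low in wild type array 2.

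Tap2, Psmb8 and Psmb9 varied most within the Ets1 null group. Tap2 read -1.56 and -1.55 in arrays labelled double null, -1.30, 0.46 and 0.34 in Ets1 null arrays, -0.86, -1.25 and -0.47 in Ets2 null arrays and -1.37, -0.44 and -1.49 in wild type arrays. Psmb9 read -2.40 and -2.90 in arrays labelled double null, -3.09, -0.41 and -1.26 in Ets1 null arrays, -2.39, -2.57 and -2.0 in Ets2 null arrays and -2.57, -2.03 and -2.14 in wild type arrays. Ets1 null arrays 2 and 3 were the highest of all arrays for both genes, and Ets1 null array 1 was the lowest for Psmb9. Bst2, the tetherin that holds virus particles at the cell surface, had the same order within the group, at -0.79, 1.29 and 0.88. The difference between Ets1 null and wild type arrays was 0.93 ± 0.47 for Tap2, 0.66 ± 0.56 for Psmb9 and 0.84 ± 0.61 for Bst2 (limma adjusted p = 0.6, 0.76 and 0.709). Each difference was smaller than the SD within the Ets1 null group (0.98, 1.37 and 1.10, n = 3).

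**Figure D4:**
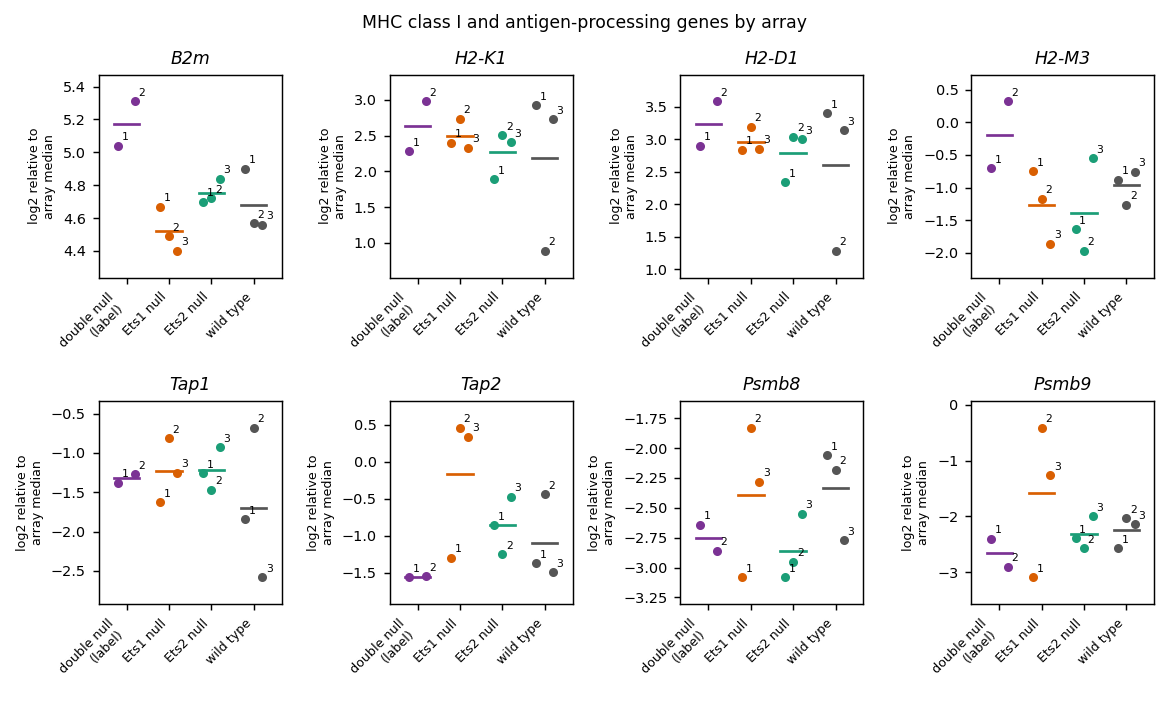
Centred log2 values by array for B2m, H2-K1, H2-D1, H2-M3, Tap1, Tap2, Psmb8 and Psmb9, with double null left, then Ets1 null, Ets2 null and wild type; numbers are replicates and lines group means. Wild type array 2 lies apart for H2-K1 (0.89) and H2-D1 (1.28), and Ets1 null arrays 2 and 3 are the highest for Tap2 and Psmb9.

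The class II genes H2-Ea, H2-Eb2 and H2-DMa, which are found mainly in leukocytes, read below the median gene in all 11 arrays, between -2.94 and -0.86. Ifi30, a thiol reductase of the class II pathway, read 0.42 to 1.58. H2-Ke6 read -1.63 to 0.12. None of these 5 genes was called in any comparison with centred values.

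The interaction term of the fit set the difference between double null and Ets1 null arrays against that between Ets2 null and wild type arrays. It was called on both scales for 3 of the 53 genes, against 8.44% of all genes. Ifi202b had a positive term of 3.41 ± 0.92 (limma adjusted p = 0.0397), as had 1.51% of all genes. Irf2bp1 (-0.83 ± 0.18, adjusted p = 0.0194) and Stat5b (-0.83 ± 0.24, adjusted p = 0.0497) had negative ones, as had 6.94% of all genes. For Ifi202b, the difference between double null and Ets1 null arrays was 1.62 and that between Ets2 null and wild type arrays -1.79. With centred values 4 were called, against 14.5% of all genes; the fourth was Irf2 (0.96 ± 0.21, adjusted p = 0.0188; 0.21 in deposited values). The Ifi202b call was kept in 8 of 19 alternatives and the Stat5b call in 5 of 19. The Irf2bp1 call was kept in 14 of 19, with adjusted p of 0.0505 to 0.0968 in those that lost it. Dimmer probe sets of some genes had called terms where the brightest had none (limma over all probe sets). Examples are Stat5a (-3.63, adjusted p = 0.0011), 1 Irf2bp2 probe set (-3.06, adjusted p = 0.000796) and B2m (1.2, adjusted p = 0.0227). As Ets1 in the arrays labelled double null goes against their label, the term compares the labelled groups.

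**Figure D5:**
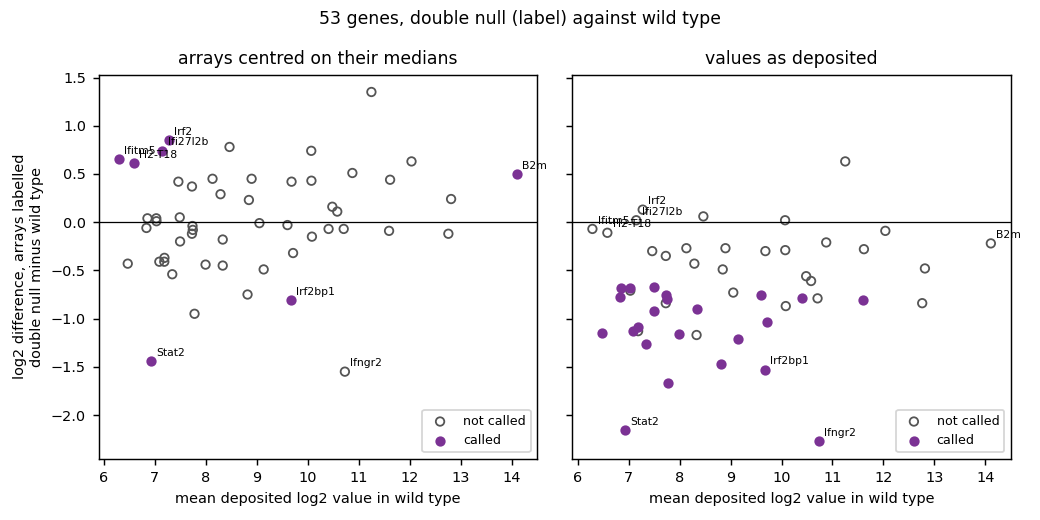
Double null minus wild type log2 difference of the 53 genes, with centred values left and deposited values right, against the mean deposited wild type log2 value. The centred differences lie around -0.01 in median, and the deposited ones around -0.73.

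Probe sets of 1 gene disagreed more in comparisons with double null arrays than in those without. Of the 53 genes, 16 had several probe sets. Their log2 differences between double null and wild type arrays spanned over 1 in 9 of the 16 genes (56.2%), against 45.3% of 4785 genes over the whole table. In Ets1 null against wild type arrays this held for 0 of 16, against 2.19% of all genes, and in Ets2 null against wild type arrays for 1 of 16 (Irf3), against 6.48%. Stat2, Irf2bp1 and Ifi202b had 1 probe set each, so this check could not be made for them.

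Other genes of interferon signalling and antigen presentation were taken from a list of 70, of which 49 were on the table. None was called in either single null, where the medians were -0.15 in Ets1 null and -0.17 in Ets2 null arrays. Between double null and wild type arrays 1 of the 49 was called higher on both scales and 5 lower, against 2.32% and 12% of all genes. Erap1, which trims peptides for class I, read -3.34 and -3.48 in arrays labelled double null, -2.02, -2.64 and -2.48 in Ets1 null arrays, -2.97, -2.52 and -2.60 in Ets2 null arrays and -1.41, -1.73 and -2.32 in wild type arrays, and the difference of double null from wild type was -1.59 ± 0.28 (limma adjusted p = 0.00434). Psmb10, the remaining catalytic immunoproteasome subunit, read -0.74 and -0.42 in arrays labelled double null, against 0.66, 0.93 and 0.02 in wild type arrays, and fell by 1.12 ± 0.25 (adjusted p = 0.0116). Both lay below all wild type arrays, whereas Psmb8 and Psmb9 were not called (-0.41 each). Lgals3bp, an interferon-induced secreted glycoprotein, the receptor Tlr4 and the nucleic acid sensor Zbp1 were the other lower genes (-2.11, -0.91 and -0.53, adjusted p = 0.0453, 0.0255 and 0.0259), and the torsin family gene Tor3a was higher (2.24 ± 0.49, adjusted p = 0.0101). Against Ets1 null arrays 4 of the 49 were lower on both scales in arrays labelled double null (Erap1, Psmb10, Tlr4 and Zbp1), against 11.3% of all genes. Against Ets2 null arrays Psmb10 and Tlr4 were lower, and Nampt, an enzyme of NAD synthesis that is also secreted, was higher (3.21 ± 0.43, adjusted p = 0.00112). Of all genes 13.2% were called lower there and 3% higher. All Ets2 null arrays were male and both double null arrays female. With a term for male arrays 2.37% of all genes were called there with centred values, against 30.3% without it. That term rests on wild type array 1 against the other wild type arrays, so the loss of calls does not show a part of sex. Alternative fits and other probe sets of the genes of this list are not given here.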

How the data were processed

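RNA of mouse aortic endothelial cells was measured on Affymetrix arrays. The authors deposited log2 values, 1 per probe set, with RMA named per the submitters' processing notes; its version and filters were not given in the sources used here. Titles and genotypes set the groups, although the description field of each single null calls the deleted gene wild type. The table held 20523 probe sets: 18824 with 1 symbol, 549 with several and 1150 with none. The brightest probe set over the arrays stood for each of 11015 genes, and 13 probe sets with several symbols that match the naming rule were not used. The third double null column was the mean of its group's other columns (within 1e-06; largest deviation 0.585) and was left out, so 11 arrays with 7 residual degrees of freedom were fitted.

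Arrays were centred on their median over all genes. limma 3.58.1 in R 4.3.3 (lmFit, eBayes, two-sided) fitted a mean per group over all genes for 6 comparisons, with Benjamini-Hochberg adjustment over all genes and a threshold of 0.05; errors are standard errors. Calls on centred and on deposited values together were added after seeing the data. The scripts were tested on simulated data. Alternatives left out each array, took all 12 columns, the compared groups alone, deposited or quantile-normalised values, the mean of probe sets, brighter genes, array weights, a replicate block or a term for male arrays (Eif2s3y over 6 on the log2 scale). Arrays give no counts; their number limits the precision. Promoter windows came from RefSeq for 43 of the 53 genes, with 10 not held.

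The genes named in full were those called, up to 10 per direction, with 21 of a list of 26 core interferon and class I genes that were on the table. The members, lists and rules were chosen with earlier results of these data known. Table work used pandas 2.3.3 and plots matplotlib 3.10.9.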

Additional observations from a re-analysis of the deposited data

Results flagged for a closer look

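For 3 genes the interaction term of the limma fit, which sets the difference of the arrays labelled double null from Ets1 null arrays against that of Ets2 null from wild type arrays, was called on centred and on deposited values. The Ifi202b term was 3.41 (adjusted p = 0.0397; 2.67 deposited, adjusted p = 0.0499). The Irf2bp1 term was -0.83 (adjusted p = 0.0194; -1.57 deposited, adjusted p = 0.000404). The Stat5b term was also -0.83 (adjusted p = 0.0497; -1.58 deposited, adjusted p = 0.0018). These terms compare labelled groups: Ets1 read 1.29 and 1.60 centred in the arrays labelled double null, against 0.41 to 0.89 in wild type arrays. In deposited values Ets1 differed by 0.1 from wild type (limma adjusted p = 0.762) and by 1.41 from Ets1 null arrays (adjusted p = 0.0019). All Ets2 null arrays were male and both double null arrays female. With a term for male arrays the values were 3.70 for Ifi202b, -0.75 for Irf2bp1 and -0.73 for Stat5b, and none was called (adjusted p = 0.103, 0.0968 and 0.184). Wild type array 1, the only male array outside the Ets2 null group, sets that term. Ifi202b and Irf2bp1 had 1 probe set each, and the second Stat5b probe set gave a term of -0.42 (limma over all probe sets, adjusted p = 0.246).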

How the results depend on the processing

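The counts of interferon genes called moved with the scaling and with single arrays. The share of all genes called under the same setting follows each count above 0 in brackets. For leaving out 1 array, only arrays of the groups of 3 are counted, and the shares are given after the list. In Ets1 null against wild type arrays (0 called) array weights gave 2 (1.42%), and leaving out 1 array 0 to 1. In Ets2 null against wild type arrays (0 called) array weights gave 8 (9.85%), the mean of probe sets 1 (0.554%), and leaving out 1 array 0 to 1. Between double null and wild type arrays (7 called, 28.3%) all 12 columns gave 11 (39.6%), array weights 4 (23.7%), deposited values 23 (45.9%), the compared groups alone 2 (12%), brighter genes 3 (29.4%), both scales together 2 (14.3%), and leaving out 1 array 5 to 8. Between double null and Ets1 null arrays (8 called, 28.7%) all 12 columns gave 13 (40.1%), deposited values 18 (44.5%), quantile normalisation 5 (23.9%), brighter genes 5 (29.5%), both scales together 2 (13%), and leaving out 1 array 2 to 10. Between double null and Ets2 null arrays (11 called, 30.3%) deposited values gave 18 (46.3%), the compared groups alone 4 (17.1%), the male term 0 (2.37%), brighter genes 6 (30.7%), both scales together 6 (16.2%), and leaving out 1 array 7 to 12. For the interaction (4 called, 14.5%) all 12 columns gave 9 (23.9%), array weights 10 (18.9%), deposited values 11 (31.6%), the mean of probe sets 8 (14.8%), quantile normalisation 2 (11.9%), the male term 0 (5.65%), and leaving out 1 array 1 to 4. The interaction calls under array weights (18.9% of the 53 genes) and the mean of probe sets (15.1%) lay near the shares of all genes. The replicate block gave 0 (0.0363%), 0 (0%), 5 (22.9%), 6 (22.9%), 10 (24.5%) and 1 (8.91%) calls in these comparisons in the same order. Without 1 array of a group of 3, all-gene shares ran 0.00908 to 0.209%, 0.0182 to 0.672% and 21 to 31.1% in this order. For the last 3 comparisons they ran 18.2 to 32%, 21.1 to 33.1% and 8.37 to 15.2%. Replicate numbers shared between groups did not pair the arrays (r of deviations -0.32 to 0.10). Directions turned in deposited values for double null against wild type (B2m -0.22, H2-T18 -0.11, Ifitm5 -0.07), against Ets1 null (B2m -0.11, H2-T18 -0.17, Ifi27l2b -0.06, Ifitm5 -0.15) and against Ets2 null (H2-T18 -0.15). Of 1776 values of named genes under alternatives, 1592 kept direction and side of the threshold, 151 lost a call, 25 gained 1 and 8 turned. The cause of these shifts was not tested. No detection values were used here, so how far dim genes such as Irf2, H2-T18, Ifitm5 and Stat2 stood above background is unknown.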
